A study of Mus musculus with 9 samples.

Results

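The genes described here carry retinoids or make and remove retinaldehyde, the aldehyde from which retinoic acid is formed. They are 9 of the 25611 rows of a mouse islet count table. The carriers are Rbp4, Ttr, Stra6, Crabp1 and Crabp2, and the enzymes are Aldh1a3, Aldh1a1, Aldh1a2 and Dhrs3. All 9 symbols were found, each in 1 row, and 5 of the 9 (Rbp4, Ttr, Aldh1a3, Aldh1a1 and Dhrs3) had enough counts to enter the statistical comparison. The genes were selected on the same comparison that is given below, so their own differences are a description and carry no test.

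Islet RNA came from mice aged 4 weeks and was sequenced from 1 library per mouse. The labelled KO group held islets of 3 mice with the Pdx1-Cre driver and a floxed Glis3 allele (Pdx1-Cre;Glis3fl/fl), and the WT group held islets of 4 mice with the floxed allele alone (Glis3fl/fl). Both groups therefore carry the floxed allele, and Pdx1-Cre is active across the pancreatic lineage and not in 1 islet cell type. No mice with Pdx1-Cre and without the floxed allele were analysed here, so what the driver does and what the deletion does cannot be told apart. Binding of Glis3, a zinc finger transcription factor of the pancreas, was mapped by chromatin immunoprecipitation with a GFP antibody in Glis3-eGFP islets at 8 weeks of age, as 1 list of 21254 peaks without a replicate.

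Retinol travels in blood bound to retinol-binding protein, which itself is held by transthyretin, and the membrane receptor STRA6 passes the retinol into cells. Inside the cell retinol is oxidised to retinaldehyde, the ALDH1A enzymes turn retinaldehyde into retinoic acid, DHRS3 reduces retinaldehyde back to retinol, and CRABP proteins carry retinoic acid to its nuclear receptors or to the CYP26 enzymes that degrade it. Retinoic acid shapes the early pancreas, and in the mouse islet transthyretin is abundant in alpha cells, Rbp4 is used as a delta cell marker, and Aldh1a3 has been described in beta cells that lose their mature state in diabetes.

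Library totals were 12099365 to 22578480 counts in the labelled KO libraries and 18297697 to 48054551 in the WT libraries. Glis3 itself was not lower in the libraries labelled KO (52.03, 52.72 and 57.72 CPM, against 39.52, 46.75, 31.22 and 33.53 CPM in WT), where CPM is the count scaled to a library of 1e6 counts after TMM normalisation. Reads of deleted and remaining exons are not separated in a gene-level count, so these counts do not check the deletion, and every direction below is that of the libraries labelled KO. Over the 14529 tested genes, 1268 were higher (8.73%) and 763 lower (5.25%), 14.0% in all at an adjusted p under 0.05 (edgeR quasi-likelihood test, Benjamini-Hochberg), and the median log2 fold change was 0.0065. With library size alone the median moved to 0.17 and the split to 1851 higher and 324 lower. Beta cell markers were present in all libraries, with 10 of 10 tested, 1 higher and 6 lower in labelled KO. Their summed level was 189300 to 299600 CPM in labelled KO and 329800 to 550700 CPM in WT. Most of that sum was Ins1, Ins2 and Iapp, so it says little of the other markers. Ins1 and Ins2 were lower (log2 fold changes −1.30 and −1.59). Iapp was the higher one, with 87040, 72010 and 98490 CPM in labelled KO and 22920, 20470, 24370 and 28150 CPM in WT.

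Among the carriers, only Rbp4 and Ttr had more than a few counts, and both stood higher in the labelled KO islets. Rbp4, the plasma carrier of retinol (chromosome 19, 38116620 to 38125321, minus strand, mm10), had 1269, 946.3 and 1571 CPM in the labelled KO libraries 1 to 3, against 243.5, 236.9, 292.9 and 386.2 CPM in the WT libraries 1 to 4. The lowest labelled KO library was above the highest WT library by a wide gap, and within each group the highest library was 1.66 times (labelled KO) and 1.63 times (WT) the lowest. The group means were 1262 ± 312 CPM (SD, n = 3) in labelled KO and 289.9 ± 68.9 CPM (SD, n = 4) in WT, a log2 fold change of 2.12 (SE 0.20). Its counts were 17095 to 35491 per labelled KO library and 4814 to 12187 per WT library, so counting error is small beside the spread between mice. In these bulk islets a difference in the number of cells of a type and one in RNA per cell cannot be told apart. The delta cell markers, of which 6 of 6 were tested and 1 was higher, summed to 8232 to 9102 CPM in labelled KO and 6342 to 9470 CPM in WT. Most of that sum was Sst (7989, 8055 and 8551 CPM in labelled KO), so it says little of the other markers. Ptprz1 was the higher one (log2 fold change 1.92, edgeR adjusted p = 5.5e-06), while Ghsr was lower without passing (−2.77, edgeR adjusted p = 0.0862). The part of the delta cell markers in the Rbp4 difference was not tested.

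Rbp4 has 2 annotated transcription starts. The window around the downstream start is printed because the nearest Glis3-GFP peak lies 216.5 bp beyond that start, inside the gene. It runs 5′ to 3′ in the gene's direction (minus strand) over chr19:38124762-38125061, from RefSeq, GRCm38.p6, the assembly behind mm10. The capitals mark the bases from the start onward.
Rbp4: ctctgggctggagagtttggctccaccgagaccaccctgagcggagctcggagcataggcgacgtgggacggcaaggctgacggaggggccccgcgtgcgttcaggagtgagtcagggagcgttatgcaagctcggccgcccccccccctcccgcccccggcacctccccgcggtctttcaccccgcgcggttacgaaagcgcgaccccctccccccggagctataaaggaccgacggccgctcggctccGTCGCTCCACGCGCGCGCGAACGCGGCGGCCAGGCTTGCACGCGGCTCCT
This window is 72.0% G or C and holds 40 CG pairs, while the window of the upstream start, at chr19:38125272-38125571, is 40.7% G or C with 5 CG pairs. The counts are per gene and do not tell the starts apart.

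Ttr encodes transthyretin, the carrier of retinol-binding protein and of thyroxine (chromosome 18, 20665250 to 20674326, plus strand). It had 5599, 5719 and 5256 CPM in labelled KO, against 1491, 1411, 1869 and 2286 CPM in WT. The groups did not overlap, and the labelled KO libraries were close to each other, with a coefficient of variation of 4.35% against 22.7% in WT. The means were 5525 ± 240 CPM (SD, n = 3) in labelled KO and 1765 ± 401 CPM (SD, n = 4) in WT, with a log2 fold change of 1.65 (SE 0.16). Ttr alone took 0.526% to 0.635% of all counts in labelled KO libraries and 0.151% to 0.186% in WT libraries. The 9 alpha cell markers were all tested, with 4 higher and 3 lower. Their summed level was 40880 to 44840 CPM in labelled KO and 36000 to 73760 CPM in WT. Most of that sum was Gcg (39950, 40690 and 44030 CPM in labelled KO), so it says little of the other markers. The part of the alpha cell markers in the Ttr difference was not tested.

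The other carriers were at or near 0 counts in these islets. Stra6, the retinol-binding protein receptor, had 0, 1 and 0 counts in labelled KO and 0 in each WT library. Crabp1, a cellular retinoic acid-binding protein, had 0 counts in each labelled KO library and 3, 0, 0 and 0 in WT. Crabp2, its homologue that hands retinoic acid to nuclear receptors, had 0 counts in each labelled KO library and 0, 3, 0 and 1 in WT. A count of 0 over all libraries of a group allows a level of up to 0.0507 CPM in labelled KO and 0.0255 CPM in WT (a one-sided limit of 3 counts in the group's summed library), which covers counting error only. Stra6, Crabp1 and Crabp2 were too low to test, and differences of the order of these limits could not be detected at this depth.

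**Figure D1:**
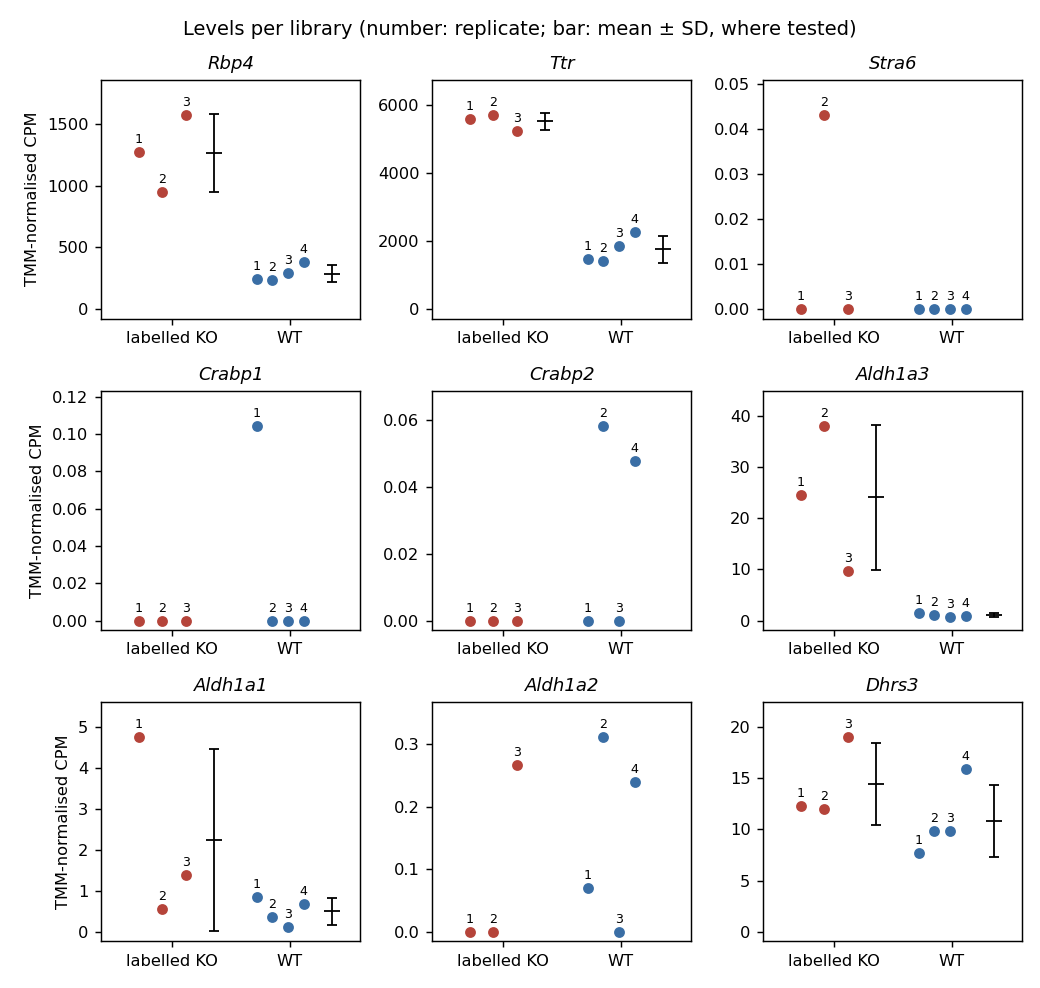
TMM-normalised CPM (vertical axes, linear, a separate scale in each panel) of the 9 genes in the 3 labelled KO libraries (red) and the 4 WT libraries (blue), with the replicate number at each point and, for the 5 tested genes, the mean ± SD as a bar. Rbp4, Ttr and Aldh1a3 have all labelled KO libraries above all WT libraries, Aldh1a1 and Dhrs3 overlap, and Stra6, Crabp1, Crabp2 and Aldh1a2 rest on a few counts.

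Of the 3 ALDH1A enzyme genes, Aldh1a3 had the largest difference between the groups, and it also varied widely among the labelled KO islets. Aldh1a3 (chromosome 7, 66390893 to 66427477, minus strand), which makes retinoic acid from retinaldehyde, had 24.49, 37.99 and 9.65 CPM in labelled KO, against 1.567, 1.128, 0.6694 and 0.9568 CPM in WT. The WT libraries were uniformly low, on 11 to 58 counts each, while labelled KO library 2 stood 3.94 times above library 3. Even that lowest labelled KO library was several-fold above the highest WT library. The means were 24.0 ± 14.2 CPM (SD, n = 3) in labelled KO and 1.08 ± 0.38 CPM (SD, n = 4) in WT, a 21.6-fold difference (log2 4.43, SE 0.43). Leaving out each library in turn gave log2 fold changes of 3.93 to 4.78.

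Aldh1a1, the homologue that also makes retinoic acid and clears other aldehydes (chromosome 19, 20601982 to 20643462, plus strand), was low in most libraries. It had 4.75, 0.561 and 1.372 CPM in labelled KO, against 0.836, 0.350, 0.122 and 0.670 CPM in WT. Labelled KO library 1 was high and library 2 fell inside the WT range, so the groups overlapped. The means were 2.23 ± 2.22 CPM (SD, n = 3) in labelled KO and 0.494 ± 0.320 CPM (SD, n = 4) in WT (log2 fold change 2.12, SE 0.79), and without labelled KO library 1 the log2 fold change was 0.94. Library 1 also had the highest sum of stomach markers, at 112.2 CPM, against 6.48 and 18.3 CPM in labelled KO libraries 2 and 3 and 0 to 0.183 CPM in WT. Of those 6 markers Gkn1, Gkn2, Muc5ac and Tff1 had no counts in any library, and the part of stomach RNA in the Aldh1a1 value was not tested. Reads may also be shared with Aldh1a7, a close copy found in the mouse, which had 4, 22 and 4 counts in labelled KO and 1, 0, 0 and 2 in WT and was too low to test.

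Aldh1a2, the enzyme that makes most retinoic acid in the early embryo (chromosome 9, 71215789 to 71296243, plus strand), was barely detected. It had 0, 0 and 6 counts in labelled KO and 2, 16, 0 and 5 in WT. Pooled over each group, that is 0.101 CPM (95% exact Poisson interval 0.0372 to 0.221) in labelled KO and 0.196 CPM (0.124 to 0.294) in WT, and the intervals overlap. The mesothelial markers, from a lining in which Aldh1a2 is known to be active, summed to 14.0 to 22.5 CPM in labelled KO and 60.9 to 116 CPM in WT. Lrrn4, Upk1b and Wt1 were at 0 in all libraries, and of the 6 markers 2 were tested and 1 was lower. Most of the sum was Msln, the lower one, so it says little of the other markers. Msln had 11.43, 18.87 and 19.12 CPM in labelled KO, against 69.7, 112.6, 58.18 and 67.5 CPM in WT. Gpm6a, the other one tested, did not pass (log2 fold change −0.45, edgeR adjusted p = 0.458). The part of the mesothelial markers in the Aldh1a2 counts was not tested.

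Although hardly any Aldh1a2 RNA was counted, its start is covered by a Glis3-GFP peak, and for that reason its promoter is shown. The window chr9:71215539-71215838 (plus strand, RefSeq, GRCm38.p6) is given 5′ to 3′, with the 110 bases that lie inside the peak at chr9:71215729-71215928 in capitals.
Aldh1a2: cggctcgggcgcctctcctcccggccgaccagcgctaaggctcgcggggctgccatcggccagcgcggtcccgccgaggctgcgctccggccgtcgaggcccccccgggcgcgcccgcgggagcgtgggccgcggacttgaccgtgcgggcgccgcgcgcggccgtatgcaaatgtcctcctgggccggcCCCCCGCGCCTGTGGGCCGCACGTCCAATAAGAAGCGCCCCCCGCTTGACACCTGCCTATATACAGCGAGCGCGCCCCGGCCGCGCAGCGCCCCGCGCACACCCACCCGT
It is the richest in G and C of the 13 windows found for the 9 genes, at 78.0%, and holds 50 CG pairs.

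Dhrs3, the reductase that turns retinaldehyde back into retinol and whose gene is induced by retinoic acid (chromosome 4, 144892827 to 144928209, plus strand), differed little between the groups. It had 12.32, 11.96 and 19.04 CPM in labelled KO, against 7.729, 9.875, 9.858 and 15.88 CPM in WT. One library of each group stood apart upward, labelled KO 3 and WT 4, and the groups overlapped. The means were 14.4 ± 3.98 CPM (SD, n = 3) in labelled KO and 10.8 ± 3.51 CPM (SD, n = 4) in WT (log2 fold change 0.42, SE 0.25). The log2 fold change was 0.14 without labelled KO library 3 and 0.65 without WT library 4.

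The promoter of the first Dhrs3 start is printed because it is the only window of these genes with the core of the described GLIS binding site. It spans chr4:144892577-144892876 (plus strand, RefSeq, GRCm38.p6), and the capitals mark the core on the opposite strand, which begins 41 bases before the start.
Dhrs3: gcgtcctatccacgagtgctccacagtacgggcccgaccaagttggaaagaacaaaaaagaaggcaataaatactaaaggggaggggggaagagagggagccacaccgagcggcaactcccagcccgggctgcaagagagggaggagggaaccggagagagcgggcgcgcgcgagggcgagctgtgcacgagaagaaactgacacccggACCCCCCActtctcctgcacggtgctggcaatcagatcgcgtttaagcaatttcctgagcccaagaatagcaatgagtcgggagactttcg
No Glis3-GFP peak lay near it, the nearest being 122 kb away.

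Of the 5 tested genes, Rbp4, Ttr and Aldh1a3 passed the adjusted p threshold and had groups that did not overlap, against 14.0% of all tested genes passing and 26.6% not overlapping. The genes were chosen by this contrast, so nothing is read from that count. The remaining 4 (Stra6, Crabp1, Crabp2 and Aldh1a2) did not reach the count minimum in either group.

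Retinoic acid-degrading Cyp26b1, another gene induced by retinoic acid, had the same 2 high libraries as Dhrs3. Its levels were 2.227, 2.763 and 13.81 CPM in labelled KO, against 0.209, 0.914, 0.426 and 12.82 CPM in WT. Over all 7 libraries the log2 fold change was 0.84 (SE 1.57, edgeR adjusted p = 0.792). Without WT library 4 it was 3.51 (edgeR adjusted p = 0.0116), and without labelled KO library 3 it was −0.53 (edgeR adjusted p = 0.886). By Pearson correlation of log2 CPM over the 7 libraries, Cyp26b1 was the second closest of 13729 genes to Dhrs3 (r = 0.97), after the potassium channel gene Kcnma1 (r = 0.98) and before Mettl21a (r = 0.96). These r values are a description over libraries that share depth and group differences.

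**Figure D2:**
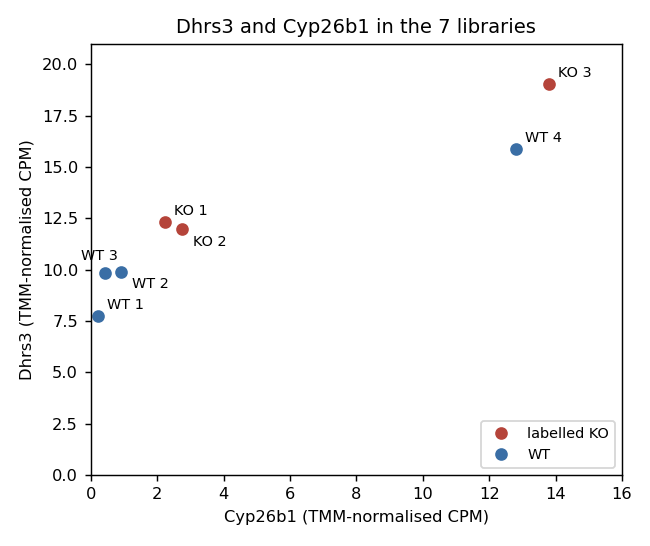
Dhrs3 (vertical axis) against Cyp26b1 (horizontal axis), both in TMM-normalised CPM on linear axes from 0, with 1 point for each of the 3 labelled KO libraries (red) and 4 WT libraries (blue). Labelled KO library 3 and WT library 4 lie at the upper right, apart from the other 5 libraries.

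The same measure of likeness gave other neighbours for the other genes. Rbp4 was closest to Iapp, the amylin gene of beta cells (r = 0.996, with means of 85840 CPM in labelled KO and 23980 CPM in WT), then to Rabac1 and Bsg. Ttr was closest to Tmem176a (222.7 CPM in labelled KO and 99.28 CPM in WT), then to Ly6e and Tat. Aldh1a3 was closest to Kif5c, Cyp17a1 and Steap1, and Aldh1a1 to Cxcl16, Ppp1r3d and Gal3st3. The size of the difference is not shared in all cases, since Kif5c averaged 43.83 CPM in labelled KO and 25.51 CPM in WT, a much smaller ratio than that of Aldh1a3.

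Beyond these 9, the pathway lists held 94 genes, and 64 were tested. In labelled KO islets 4 of the 64 were higher and 8 lower by the edgeR quasi-likelihood test, 18.8% against the 14.0% of all tested genes, and the median log2 fold change was −0.02 against 0.0065 over all tested genes. With library size alone the counts were 7 higher and 5 lower.

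Uptake and storage of retinoids and their precursors was the list with the most changes, with 3 higher and 1 lower of 8 tested. That is 50%, against 14.0% of all tested genes that passed in either direction. The list is small and was drawn up with earlier results known, so nothing is read from its rank. Bco1, which cleaves beta-carotene into retinaldehyde, rose to 26.35, 41.62 and 31.03 CPM in labelled KO, against 8.112, 7.368, 6.816 and 6.745 CPM in WT (log2 fold change 2.18, SE 0.18, edgeR adjusted p = 2.9e-06). Fabp5, a fatty acid-binding protein that can carry retinoic acid to PPAR delta, had 41.93, 23.44 and 17.71 CPM in labelled KO and 3.656, 3.227, 4.077 and 2.918 CPM in WT (log2 fold change 3.00, SE 0.27, edgeR adjusted p = 5.7e-06). Lpl, the lipoprotein lipase that releases lipids and retinyl esters from lipoproteins, was the member that fell, with 134.0, 141.0 and 152.5 CPM in labelled KO and 460.2, 389.7, 542.1 and 580.5 CPM in WT (log2 fold change −1.79, SE 0.15, edgeR adjusted p = 4.0e-06). No library of one group reached the range of the other in Bco1, Fabp5 or Lpl. In the list 5 of the 8 tested genes had groups that did not overlap, against 26.6% of all tested genes. The remaining 4 tested genes of the list did not pass, and Rbp2, Stra6l, Lrat and Isx had too few counts to test. Stellate and other mesenchymal markers, from cells known to store retinoids, summed to 452.8 to 585.9 CPM in labelled KO and 309.3 to 402.2 CPM in WT (10 of 10 tested, 2 higher). Their part in these differences was not tested.

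Of the enzymes between retinol and retinaldehyde 10 were tested, and 1 was lower, which is near the 14.0% of all tested genes that passed in either direction. The one that fell was Dhrs4, a retinal reductase, with 13.51, 14.38 and 22.4 CPM in labelled KO and 28.03, 33.88, 38.7 and 44.68 CPM in WT (log2 fold change −1.11, SE 0.20, edgeR adjusted p = 0.00227). Adh1, an alcohol dehydrogenase that oxidises retinol, was named for its high count and had a log2 fold change of 0.12 (SE 0.19, edgeR adjusted p = 0.725). The log2 fold change of Dhrs7 was 0.35 (SE 0.14, edgeR adjusted p = 0.12), and with library size alone it passed, at 0.54 (adjusted p = 0.0196). Among the CYP26 oxidases only Cyp26b1 had enough counts to test.

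At the receptor step, all 12 genes of the list were tested and 2 were lower (16.7%). That is near the 14.0% of all tested genes that passed in either direction. Rara, the retinoic acid receptor alpha, fell to 6.754, 10.45 and 8.012 CPM in labelled KO, against 18.31, 15.51, 22.7 and 22.15 CPM in WT (log2 fold change −1.21, SE 0.21, edgeR adjusted p = 0.00127). Ncoa2, a coactivator of nuclear receptors, had a log2 fold change of −0.61 (SE 0.16, edgeR adjusted p = 0.0215), with 21.75, 27.33 and 29.57 CPM in labelled KO and 45.75, 42.07, 41.5 and 30.62 CPM in WT. Its highest labelled KO library came within about 1 CPM of the lowest WT library, and its adjusted p was 0.157 with library size alone, 0.0764 with acinar markers as a covariate and 0.0819, 0.0601, 0.0607 and 0.053 without labelled KO 1, WT 1, WT 2 and WT 3.

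Of the genes known to respond to retinoic acid 13 were tested, and 1 was lower (7.69%, against the 14.0% of all tested genes that passed in either direction). The other 12 did not pass, and the median log2 fold change was 0.39, against 0.0065 over all tested genes. Meis1, a homeobox gene, was the one that fell, with 6.531, 8.16 and 10.89 CPM in labelled KO and 12.88, 15.38, 20.02 and 15.74 CPM in WT (log2 fold change −0.90, SE 0.22, edgeR adjusted p = 0.0138). Meis2 and Btg2, those with the most counts among the others, had log2 fold changes of −0.03 (SE 0.16) and −0.12 (SE 0.24), with edgeR adjusted p of 0.927 and 0.801, and both signs turned with library size alone. Hoxb1, Cdx1, Stra8, Rarres1 and Cyp26a1 were among those that had too few counts to test.

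**Figure D3:**
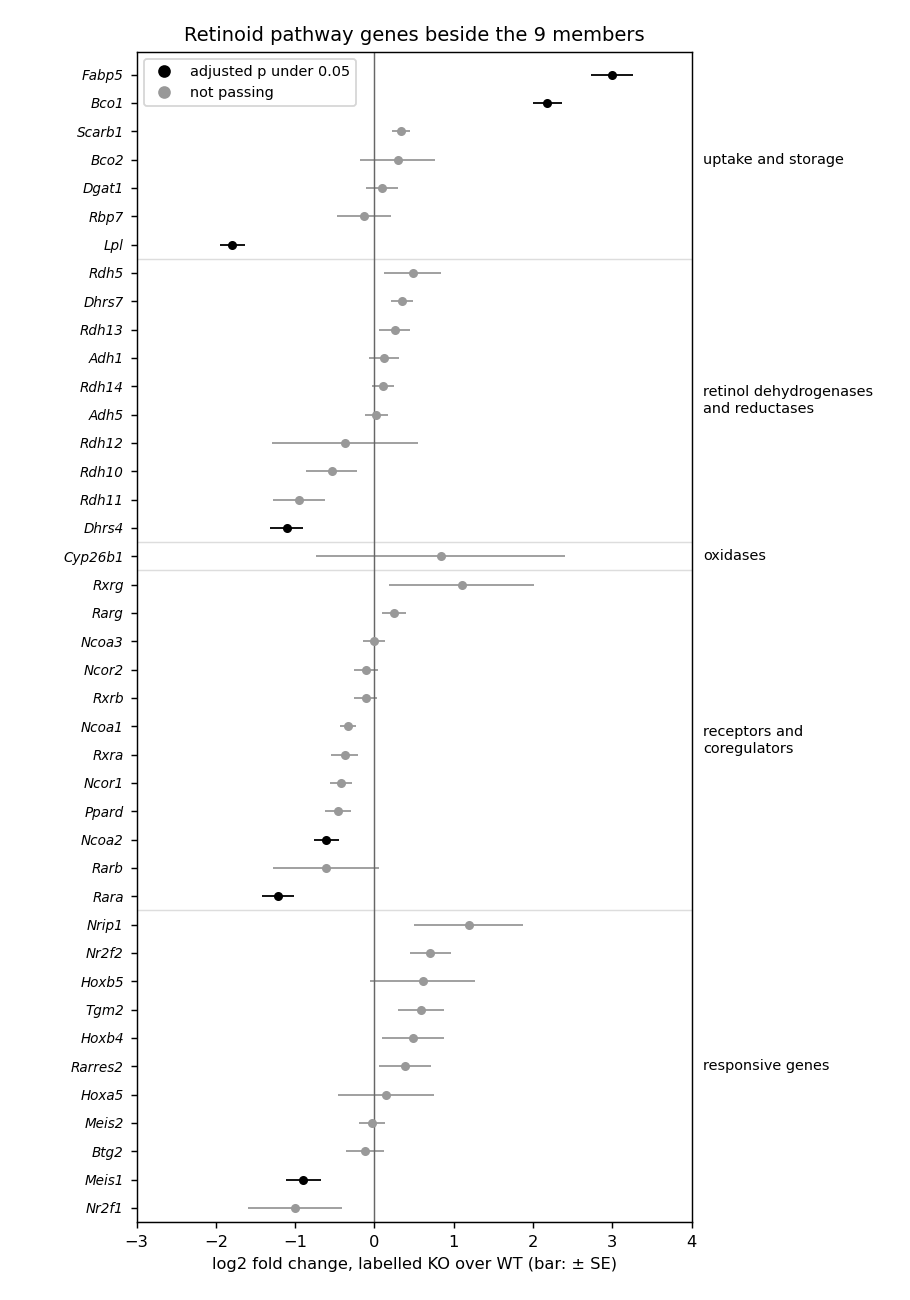
Log2 fold change of labelled KO over WT (horizontal axis, points, with ± SE as bars) for tested retinoid pathway genes outside the 9, grouped by step, black where the edgeR adjusted p was under 0.05 and grey otherwise. Fabp5 and Bco1 lie to the right of 0, Lpl, Dhrs4, Ncoa2, Rara and Meis1 to the left, and most of the dehydrogenases and responsive genes are grey.

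Glis3-GFP peaks lay within 10 kb of the 5′ end of 3 of the 9 genes, against 80.5% of tested genes and 52.9% of all rows. Each peak is 200 bp wide, and distances run from its midpoint. The Ttr peak was centred 14.5 bp upstream of the gene's 5′ end, and that of Aldh1a2 39.5 bp downstream. Rbp4 had 2 peaks within 10 kb, 1 inside the gene 726.5 bp from its 5′ end and 1 located 6.74 kb upstream, where the nearest 5′ end is that of Pde6c. Within 50 kb there were 6 peaks for Rbp4 and 4 for Ttr. The peak list carries no score, and binding was measured in older mice than the RNA.

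The remaining 6 genes had no peak within 10 kb of the 5′ end. For Crabp2 the nearest was 18.5 kb away, 18.5 bp from the 5′ end of Rrnad1, and for Stra6 it was 21.3 kb upstream, within Ccdc33. The nearest peak to Crabp1 was 23.3 kb downstream. Aldh1a3, the gene with the largest log2 fold change of the 9, had its nearest peak 39.4 kb downstream of its 5′ end. That peak (66387992 to 66388191) lies past the 3′ end of Aldh1a3 at 66390893, inside Lrrk1 and 249.5 bp from the 5′ end of Lrrk1. For Dhrs3 and Aldh1a1 there was none within 100 kb, with distances of 122 kb and 670.1 kb. Among the 64 other tested pathway genes, 47 (73.4%) had a peak within 10 kb. Of the genes that rose, Fabp5 had its peak 0.15 kb upstream, while Bco1 had its nearest inside the gene, 20.2 kb downstream of its 5′ end.

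**Figure D4:**
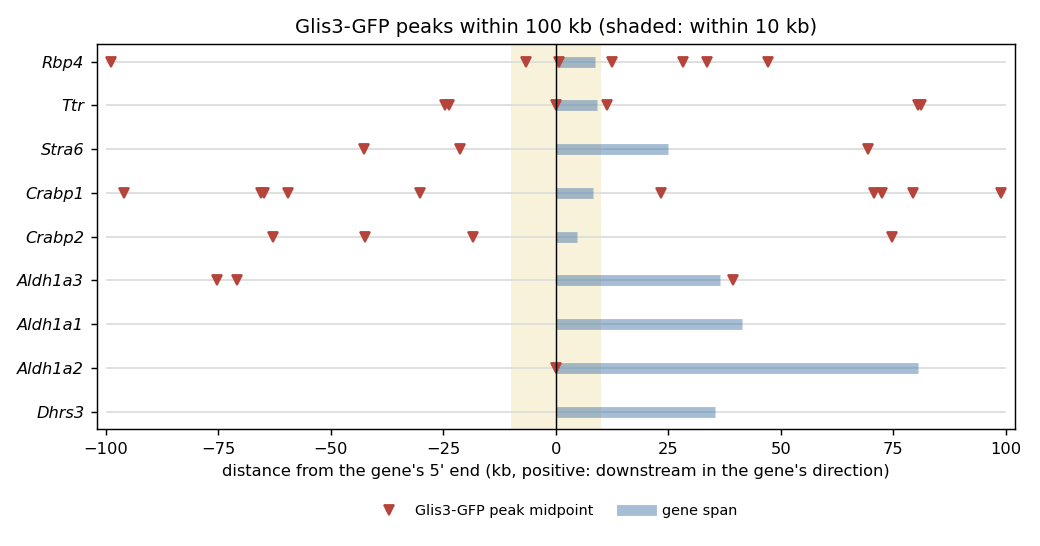
Midpoints of Glis3-GFP peaks (red triangles) within 100 kb of the 5′ end of each of the 9 genes, in kb along the gene's direction on the horizontal axis, with the gene span as a blue bar and the 10 kb window shaded. Rbp4, Ttr and Aldh1a2 have a peak in the shaded window, and Aldh1a1 and Dhrs3 have none in the whole range.

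Promoter windows of 250 bases before and 50 after a start were found for 6 of the 9 genes, with 13 starts in all, and Ttr, Aldh1a3 and Crabp2 were not searched. Of all 32851 windows, 20.8% overlapped a Glis3-GFP peak, and among the 13 only the Aldh1a2 window did. The GLIS core, searched as TGGGGGGT on both strands, was in 1.53% of all windows, in 1.33% of those overlapping a peak and in 1.58% of the rest. Only the first Dhrs3 window held it. The shorter form GGGGGGT, which every full core also contains, was in 5.17% of all windows and in those of Stra6 (2 of its starts), Crabp1 and Dhrs3. The nuclear receptor hexamer AGGTCA, searched on both strands, was in 16.3% of all windows and in none of the 13, and a pair of them spaced by 5 bases, a form of retinoic acid response element, was in 0.00913% of all windows. These matches describe letters in a fixed window and say nothing of binding elsewhere.

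Sums of markers of other cell types differed between the groups for some types and overlapped for others. Acinar markers summed to 2166, 12200 and 3055 CPM in labelled KO libraries 1 to 3 and 705.4 to 4432 CPM in WT (11 of 13 tested, none called), and library 2, the highest, was also the highest for Aldh1a3. With the acinar marker mean as a covariate Rbp4, Ttr and Aldh1a3 kept the sign of their log2 fold change. Genes chosen for a large difference would be likely to keep it, so nothing is read from that. Duct markers summed to 821.6 to 994.1 CPM in labelled KO and 271.2 to 326.9 CPM in WT (7 of 8 tested, 1 higher), and macrophage markers to 208.1 to 221.8 CPM in labelled KO and 117 to 154.4 CPM in WT (7 of 7 tested, 1 higher). Liver markers, from the tissue that makes most plasma retinol-binding protein and transthyretin, summed to 5.49 to 11.3 CPM in labelled KO and 0.974 to 3.93 CPM in WT (4 of 5 tested, 1 higher). Endothelial markers, at 605.6 to 765.9 CPM in labelled KO and 558.2 to 613.7 CPM in WT (6 of 6 tested, none called), and dendritic cell markers, at 5.755 to 6.088 CPM in labelled KO and 2.921 to 6.058 CPM in WT (3 of 6 tested, none called), overlapped between the groups. The part of acinar, duct, macrophage, liver, endothelial and dendritic cell RNA in the levels above was not tested.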

How the data were processed

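RNA was measured in islets of 3 labelled KO and 4 WT mice, and binding in 1 Glis3-GFP library; the Input library was not analysed here. The authors deposited whole-number counts per gene with mm10 coordinates, per the file headers, and peaks as 200 bp intervals with no score. HOMER 4.9.1, bedtools 2.24.0, Picard 1.110, Bowtie 1.2, cutadapt 1.2.1, featureCounts 1.5.0-p1 and STAR 2.5 are named, without roles, per the submitters' processing notes. The strand option is not given in the sources used here, so reads of overlapping antisense genes may be included.

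Genes were kept with filterByExpr, scaled with TMM factors and compared with edgeR 4.0.16 (R 4.3.3, robust quasi-likelihood F test, Benjamini-Hochberg over 14529 genes, threshold 0.05). Log2 fold changes are labelled KO over WT; each SE is its size over the square root of F. The fit was checked on simulated counts. Low totals have exact Poisson intervals at 95%, for counting error only, since no molecular identifiers are stated. No libraries of a group were copies (chi-square per degree of freedom 23.4 to 95.4).

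The 9 genes and all lists were chosen with earlier results of these data known. Named genes were the 9, Glis3, up to 4 called genes with the smallest p in each list (where fewer than 2 were called, also the 2 most abundant tested ones), the 3 closest genes by Pearson r of log2 CPM (prior count 2) for each of the 9 with at least 1 CPM on average, and the nearest gene to each close peak. Aldh1a7, Reg2, Sst, Ptprz1, Ghsr, Gcg, Msln, Gpm6a, Ins1, Ins2 and genes listed as too low were added after their values were seen. Some genes counted in the lists are not reported here by name. Alternatives were RLE factors, library size alone, 2 other count filters, DESeq2 1.42.0, limma-voom (limma 3.58.1), a block for the replicate number, each library left out, an acinar covariate, the 10 most abundant genes left out, other peak windows and a shorter motif. Promoters came from RefSeq, GRCm38.p6.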

Additional observations from a re-analysis of the deposited data

Results flagged for a closer look

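Among 28 genes screened in the WT group (the 9 retinoid genes, Glis3 and the pathway genes that the naming rule picked, where at least 20 counts were present over all libraries), 2 had 1 library far from the others. Cyp26b1 stood at 12.82 CPM in WT library 4, with the other 3 WT libraries at 0.209 to 0.914 CPM, a gap of 0.944 of the group's range against a critical value of 0.829 for 4 samples. Dio1, the type 1 deiodinase that activates thyroid hormone, stood at 84.31 CPM in WT library 2, with the others at 101.9 to 103 CPM, a gap of 0.941 of the range. Chance flags about 1 in 20 groups. The labelled KO group, with 3 libraries, could not be screened in this way.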

How the results depend on the processing

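Over all 16 alternatives Rbp4 (log2 fold change 1.90 to 2.31), Ttr (1.55 to 1.85) and Aldh1a3 (3.93 to 4.78) kept their sign; Aldh1a1 (15 alternatives) ran from 0.94 to 2.58 and Dhrs3 from 0.14 to 0.65. The count of called genes was 2031 and ran from 1475 (without WT library 2) to 2660 (DESeq2), and that of pathway genes was 12 and ran from 10 to 17, or 11 to 13 with each library left out. The replicate block gave 2188 called genes, 14 called pathway genes and a log2 fold change of 3.15 for Cyp26b1 (edgeR adjusted p = 0.00219). Replicate number 4 holds only a WT library, so under the block WT 4 does not enter the difference between the groups. For Cyp26b1 the block is therefore close to leaving out WT 4. Same-numbered deviations correlated at 0.126, 0.080 and 0.092. The same-numbered WT library was the best match for labelled KO 1 and 2, while WT 4 was for labelled KO 3 (0.124). Correlations this small in so few libraries cannot decide whether the numbers pair the libraries. Signs turned with library size alone for Meis2 (0.17), Btg2 (0.052), Aldh9a1 (0.11) and Fabp3 (0.12), with the replicate block for Meis2 (0.086), and with the acinar covariate for Btg2 (0.035) and Fabp3 (0.17). With each library left out the log2 fold change ran from −0.042 to 0.31 for Adh1, −0.53 to 3.51 for Cyp26b1, −0.13 to 0.049 for Meis2, −0.54 to 0.052 for Btg2 (edgeR adjusted p = 0.0426 without labelled KO 1), −0.16 to 0.036 for Aldh9a1, −0.093 to 0.41 for Fabp4 and −0.36 to 0.14 for Fabp3; the cause was not tested. Glis3 (edgeR adjusted p = 0.0257) was at 0.0501, 0.117, 0.0945 and 0.085 without labelled KO 1, labelled KO 3, WT 3 and WT 4, at 0.0505 with the replicate block and at 0.0819 with the acinar covariate. Peaks were near 3 genes within 1 kb, and 7 within 50 kb and 7 within 100 kb, windows that hold more peaks by construction, and the shorter motif was in windows of 3 genes. Depth limits Stra6, Crabp1, Crabp2 and Aldh1a2.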

Other observations

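Transthyretin also carries thyroxine, and 7 of the 9 genes listed for thyroid hormone transport and activation were tested, of which 1 was higher and 2 lower in labelled KO (8.73% and 5.25% over all tested genes). Serpina7, the thyroxine-binding globulin gene, had 37.55, 37.82 and 33.82 CPM in labelled KO, against 10.86, 8.69, 8.337 and 5.597 CPM in WT (log2 fold change 2.11, SE 0.19, edgeR adjusted p = 7.0e-06). Ttr and Serpina7 both stood higher in labelled KO with no overlap, and 26.6% of all tested genes had groups that did not overlap. Ttr was chosen by this contrast, so nothing is read from the pair. Dio1 had 67.76, 43.91 and 61.09 CPM in labelled KO, against 101.9, 84.31, 103 and 102.6 CPM in WT (log2 fold change −0.77, SE 0.15, edgeR adjusted p = 0.00345). Slc16a10, a transporter of aromatic amino acids and thyroid hormone, averaged 221.6 ± 21.4 CPM (SD, n = 3) in labelled KO and 306.0 ± 14.2 CPM (SD, n = 4) in WT (log2 fold change −0.47, edgeR adjusted p = 0.0189). It lost the call with library size alone (0.207), with the acinar covariate (0.0778) and without labelled KO 2 (0.0657).

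Of the other aldehyde dehydrogenase genes 12 were tested, and 1 passed (8.33%, against 14.0% of all tested genes). In this list Aldh6a1, a mitochondrial enzyme of valine breakdown, was lower at 21.5 ± 3.07 CPM (SD, n = 3) in labelled KO and 35.2 ± 6.62 CPM (SD, n = 4) in WT (log2 fold change −0.71, edgeR adjusted p = 0.0107, and 0.0802 with library size alone), and 11 did not pass. Aldh18a1, which acts in proline synthesis, had a log2 fold change of 0.37 (edgeR adjusted p = 0.0512, and 0.0334 by DESeq2) and Aldh9a1 one of −0.07 (edgeR adjusted p = 0.771), positive with library size alone. Of the other fatty acid-binding proteins Fabp4, Fabp3 and Fabp7 were tested and none passed, with log2 fold changes of 0.24 for Fabp4 and −0.07 for Fabp3 (edgeR adjusted p = 0.586 and 0.927).

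The libraries with high Dhrs3 and Cyp26b1, labelled KO 3 and WT 4, were compared after their values had been seen. Of 14515 tested genes with a symbol of their own, 2 were at least 3 times as high in each of these libraries as in every other library of its group, Cyp26b1 and Reg2. Reg2, a regenerating islet-derived gene, had 0, 1.641 and 16.64 CPM in labelled KO, against 0.418, 0.875, 6.998 and 112.8 CPM in WT.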
